A study of Mus musculus with 8 samples.

Results

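The transcription factors that hold the identity of the pancreatic β-cell were followed in islets of βUCP2Tg and wild-type (WT) mice. They are 9 genes, *Pdx1*, *Mafa*, *Nkx6-1*, *Nkx2-2*, *Neurod1*, *Isl1*, *Pax6*, *Foxa2* and *Hnf4a*, out of 26916 named genes on the array. The members were found by their gene symbol in the deposited table, which gives 18 probes for these genes among the 56605 probes of the array. *Mafa*, *Nkx6-1*, *Neurod1* and *Foxa2* have 1 probe each, and the other 5 genes have several.

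The βUCP2Tg mice carry *Ucp2*, the gene of a mitochondrial uncoupling protein, under the rat insulin II promoter, so that the transgene is driven in β-cells. WT littermates served as controls, and both lines had a C57BL/6J background. Islets of adult male mice were isolated and kept for 8 h in RPMI medium with 200 mg/dL glucose, serum and antibiotics in both groups, which hold 4 samples each. The general islet methods of the study also describe an overnight culture at lower glucose after the islets were picked. Total RNA was labelled with Cy3 and put on one-colour Agilent arrays, 1 array per sample. The sources used here do not say how many mice gave one sample, so n, SD and p refer to samples and may cover technical spread only. All arrays lay on one slide with a single genotype in each of its rows, so that the row and the genotype cannot be told apart. Whole islets hold α-, δ- and PP cells and some exocrine tissue beside β-cells. Fewer cells of a type and less RNA per cell cannot be told apart in such samples.

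β-cell identity is kept by a small set of DNA-binding proteins that act together on the same enhancers and on each other's genes. PDX1 and NKX6-1 are homeodomain proteins needed for the β-cell fate. MAFA is a basic leucine zipper activator of the insulin gene that marks mature β-cells. NKX2-2, NEUROD1, ISL1 and PAX6 are shared by the endocrine cells of the islet, while FOXA2 and HNF4α are factors of the endoderm that are also central in liver. Mutations in several of these genes cause monogenic diabetes in people, among them *HNF4A*, *PDX1* and *NEUROD1*.

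Several of these genes have more than one probe or more than one start, and the sequences below are those on which the reading of the results turns. The first pair are the *Pax6* probes at the paired domain, the second DNA-binding domain of the protein beside its homeodomain. Capitals mark the 10 bases that both probes hold. After them one probe, named canonical below, goes straight on into the next exon. The other goes into the alternative exon that puts a short insert into the paired domain. In the form with the insert, that next exon follows the insert, so most letters of the canonical probe are in both forms. The domains and exons named here for the *Pax6* and *Hnf4a* probes were read from the probe letters and were not mapped to an annotation.
Pax6 A_55_P2719489: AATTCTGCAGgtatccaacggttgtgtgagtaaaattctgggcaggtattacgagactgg
Pax6 A_52_P469306: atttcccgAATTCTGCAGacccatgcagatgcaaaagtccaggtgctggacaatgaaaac
No probe of another gene on the array shared a run of 20 bases with any of the 18 probes. The only *Mafa* probe, not printed, holds 30 of its 60 bases in a repeat of CAC and CAT.
*Hnf4a* has a dim probe in the coding sequence of the DNA-binding domain, shown whole, and a bright probe of which the first 30 bases are shown.
Hnf4a A_52_P69656: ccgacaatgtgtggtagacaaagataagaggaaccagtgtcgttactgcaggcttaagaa
Hnf4a A_55_P1959633: ggggtaaaaaagagaaaaagccctcaaaaa

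Upstream windows of 250 bases were found in the RefSeq table (build GRCm38.p6) for 8 of the 9 genes, 12 windows in all. Those of *Foxa2*, *Pdx1* and *Hnf4a* are shown as examples. The levels of these genes moved together from array to array, as described further on, and so did those of *Nkx6-1* and *Nkx2-2*, whose windows are not shown. The part of the motifs in the levels was not tested. *Foxa2* has 3 windows, of which 1 is shown. *Hnf4a* has 2 windows, and the first of them is the distal promoter, the one known to be used in islets. Capitals mark, on both strands, the homeodomain core TAAT, the E-box CANNTG, the forkhead cores TGTTTA and TGTTTG, the letters GTTAAT, the MAF letters TGCTGA, the NKX2 letters CACTTNA and the HNF4 letters AAAGTCCA. GTTAAT holds a TAAT core, so that these matches overlap.
Foxa2, chr2:148046970-148047219, minus strand: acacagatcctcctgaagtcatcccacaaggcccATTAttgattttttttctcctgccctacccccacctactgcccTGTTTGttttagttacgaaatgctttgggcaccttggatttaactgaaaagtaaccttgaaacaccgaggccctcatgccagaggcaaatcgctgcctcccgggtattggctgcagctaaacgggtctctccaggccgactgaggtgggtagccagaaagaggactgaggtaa
Pdx1, chr5:147269847-147270096, plus strand: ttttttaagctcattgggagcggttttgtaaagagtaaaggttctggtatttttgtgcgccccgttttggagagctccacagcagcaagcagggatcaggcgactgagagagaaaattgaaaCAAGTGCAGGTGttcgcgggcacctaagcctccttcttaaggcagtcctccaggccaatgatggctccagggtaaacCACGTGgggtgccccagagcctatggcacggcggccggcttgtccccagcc
Hnf4a distal, chr2:163506607-163506856, plus strand: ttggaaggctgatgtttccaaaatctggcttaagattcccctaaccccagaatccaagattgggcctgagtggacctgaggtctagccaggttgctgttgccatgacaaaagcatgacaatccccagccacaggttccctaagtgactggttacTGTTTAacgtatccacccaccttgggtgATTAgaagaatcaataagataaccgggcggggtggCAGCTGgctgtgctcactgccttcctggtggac
Hnf4a proximal, chr2:163546905-163547154, plus strand: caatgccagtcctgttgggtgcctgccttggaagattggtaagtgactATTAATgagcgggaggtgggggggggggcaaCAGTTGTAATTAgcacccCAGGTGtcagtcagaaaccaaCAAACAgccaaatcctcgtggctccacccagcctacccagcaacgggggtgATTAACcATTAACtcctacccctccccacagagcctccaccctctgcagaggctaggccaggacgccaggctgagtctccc

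The proximal *Hnf4a* window held 6 homeodomain cores, 2 E-boxes, 2 GTTAAT matches and 1 forkhead core, and the distal one held 1 homeodomain core, 1 E-box and 1 forkhead core. The *Foxa2* window shown held 1 homeodomain core and 1 forkhead core. Of the *Foxa2* windows not shown, one held 1 match of the MAF letters, and the other held 2 homeodomain cores, 1 E-box, 1 forkhead core and 1 GTTAAT match. The *Pdx1* window held 3 E-boxes and no other of these motifs. Of the windows not shown, that of *Nkx6-1* held 1 match of the MAF letters and no other of these motifs. That of *Nkx2-2* held 1 homeodomain core, 3 E-boxes and 1 match of the NKX2 letters. Such letters are common. Of 32851 RefSeq windows of the same length, 54.9% held TAAT, 66.2% an E-box, 25.3% a forkhead core, 16.1% the MAF letters and 10.1% the NKX2 letters. GTTAAT was in 6.43% of all windows and AAAGTCCA in 1.01%, and AAAGTCCA was in none of the 12 windows. A match of letters is not evidence of binding.

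The labels were first checked against *Ucp2* itself. On its brighter probe, the log2 signal relative to the array's 75th percentile, which is the scale of all levels below, was 8.24, 8.05, 7.86 and 7.51 in βUCP2Tg replicates 1 to 4. It was 1.70, 1.43, 1.53 and 2.0 in WT replicates 1 to 4. The difference was 6.25 ± 0.18 (SE; limma, adjusted p = 9.42e-06), and every array matched its label. The other *Ucp2* probe differed by 0.45 ± 0.13 with an adjusted p of 0.103, and its groups did not overlap. *Ins1*, *Ins2* and the other 6 genes on the list of β-cell markers were all above background in both groups. Between 33191 and 36320 probes were well above background on an array and no spot was saturated, and the number of arrays limits the precision.

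None of the 18 probes was called between βUCP2Tg and WT islets. Calls needed a fold over 1.5 together with an adjusted p under 0.05 in limma, fitted over the 35363 probes whose signal exceeded background clearly on 4 or more of the 8 arrays. All 18 probes were among these, and 17 of them were well above background on every array. Of all probes tested, 0.419% were called. No member had an adjusted p under 0.05 at any fold, against 0.438% of all probes, and the lowest adjusted p of a member was 0.109. The methods' t-test after adjustment called no member either. At an unadjusted p under 0.05, 6 of the 18 member probes passed in limma, 2 higher and 4 lower in βUCP2Tg. Of all probes 24.8% did, 10.5% higher and 14.2% lower. On the brightest probe, 6 genes had higher means and 3 had lower means in βUCP2Tg islets, with a median difference of 0.28 where that of all genes tested was 0.04.

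**Figure D1:**
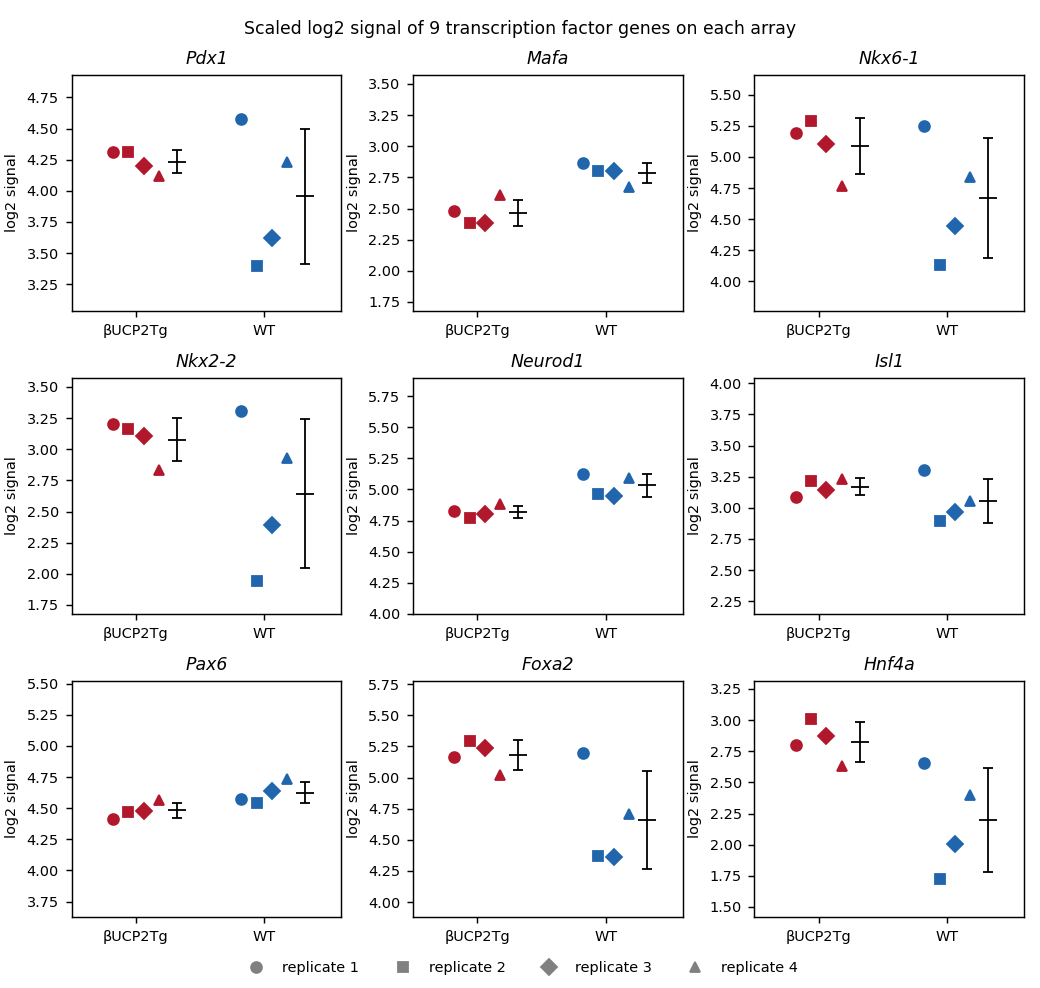
Level of each gene on each array. The vertical axis is the log2 signal of the brightest probe relative to the array's 75th percentile, with the same span in each panel. Red symbols are βUCP2Tg arrays, blue symbols are WT arrays, the symbol shape gives the replicate, and black bars are mean ± SD (n = 4). *Mafa* and *Neurod1* are the genes whose groups do not overlap, and in *Pdx1*, *Nkx6-1*, *Nkx2-2*, *Foxa2* and *Hnf4a* WT replicate 1 lies with the βUCP2Tg arrays.

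Among the factors of the β-cell fate, *Pdx1* stood at 4.31, 4.31, 4.20 and 4.12 in βUCP2Tg replicates 1 to 4 and at 4.57, 3.39, 3.62 and 4.23 in WT replicates 1 to 4. The βUCP2Tg arrays were close to each other, while WT replicate 1 was the highest of all 8 arrays and WT replicates 2 and 3 the lowest. The difference of the means was 0.28 ± 0.24 (SE) on the log2 scale, with a 95% interval of -0.28 to 0.84 (limma, adjusted p = 0.503). The second *Pdx1* probe gave 0.24 ± 0.20 (adjusted p = 0.500) and the same order of the WT arrays. *Nkx6-1* was at 5.19, 5.29, 5.11 and 4.77 in βUCP2Tg and at 5.25, 4.13, 4.45 and 4.84 in WT. Again WT replicate 1 was level with the βUCP2Tg arrays, and βUCP2Tg replicate 4 lay between WT replicates 3 and 4. The difference was 0.42 ± 0.24 with an interval of -0.12 to 0.96 (limma, adjusted p = 0.302).

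*Mafa*, the activator of mature β-cells, behaved otherwise. Its level was 2.48, 2.38, 2.38 and 2.61 in βUCP2Tg and 2.87, 2.80, 2.80 and 2.68 in WT. All βUCP2Tg arrays were below all WT arrays, the smallest gap being that between βUCP2Tg replicate 4 and WT replicate 4. The means were 2.46 ± 0.11 and 2.79 ± 0.08 (SD, n = 4), a ratio of 0.80 with a 95% interval of 0.69 to 0.93. The exact permutation test gave its smallest possible p of 0.0286 (two-sided), and the limma test over all probes gave an adjusted p of 0.109. Groups that did not overlap were seen in 2 of the 18 member probes, *Mafa* and *Neurod1*, both lower in βUCP2Tg. The same held for 12.1% of all probes tested, and for 6.58% with βUCP2Tg lower.

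Among the factors shared by islet endocrine cells, *Nkx2-2* had the widest spread. Its brighter probe read 3.21, 3.17, 3.11 and 2.83 in βUCP2Tg and 3.31, 1.95, 2.39 and 2.93 in WT. The WT arrays spanned 1.36 on the log2 scale against 0.38 for the βUCP2Tg arrays, and the groups overlapped through WT replicates 1 and 4. The difference was 0.43 ± 0.27 with an interval of -0.19 to 1.06 (limma, adjusted p = 0.352), and the second probe, made for another transcript variant, gave 0.17 ± 0.18 (adjusted p = 0.590).

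*Neurod1*, the basic helix-loop-helix partner of the insulin E-box, was at 4.83, 4.77, 4.80 and 4.88 in βUCP2Tg and at 5.13, 4.97, 4.95 and 5.09 in WT. The groups did not overlap, but the difference was small, at -0.21 ± 0.09 with an interval of -0.41 to -0.01. This is a ratio of 0.86 (exact permutation p = 0.0286, limma adjusted p = 0.180). *Isl1*, a LIM homeodomain protein, had 2 probes whose fitted differences had opposite signs. One gave 3.09, 3.22, 3.14 and 3.24 in βUCP2Tg and 3.30, 2.89, 2.97 and 3.06 in WT, a difference of 0.12 ± 0.11. The other gave -0.08 ± 0.12, and the adjusted p-values in limma were 0.540 and 0.684. The βUCP2Tg arrays fell within the range of the WT arrays on the first probe, and on both probes WT replicate 1 was the highest array.

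*Pax6* was covered by 6 probes. The brightest read 4.42, 4.47, 4.48 and 4.56 in βUCP2Tg and 4.58, 4.54, 4.64 and 4.73 in WT, with βUCP2Tg replicate 4 just above WT replicate 2. The difference was -0.14 ± 0.09 (exact permutation p = 0.0571, limma adjusted p = 0.347). A second probe gave -0.13 ± 0.11 (adjusted p = 0.489).

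Of the 2 paired-domain probes printed above, the insert probe holds letters of the insert. The canonical probe has most of its letters in the forms with and without the insert. The canonical probe read 0.47, 0.57, 0.57 and 0.48 in βUCP2Tg and 0.44, 0.55, 0.46 and 0.85 in WT, and the fitted difference was -0.05 ± 0.11. The insert probe read -0.64, -0.75, -1.10 and -0.98 in βUCP2Tg and -1.19, -0.77, -1.10 and -0.72 in WT, with a difference of 0.08 ± 0.15. The groups overlapped on both. Within each array, the insert probe minus the canonical probe was -1.39 ± 0.23 in βUCP2Tg and -1.52 ± 0.14 in WT (SD, n = 4), and these did not differ beyond their spread (exact permutation p = 0.343, chosen after the values were seen). This difference is not a ratio of the 2 forms, since the canonical probe can read both.

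The remaining 2 *Pax6* probes were made for Ensembl transcripts and had the lowest ratios among the 18 probes. The first 30 bases of each are shown, since these are the *Pax6* probes that stand apart.
Pax6 A_55_P2719494: ccattattttccctttgttcttcacaacat
Pax6 A_55_P2827100: gtcactagcgacaaatttatctttctgact
The first read 0.26, 0.24, 0.42 and 1.01 in βUCP2Tg and 0.94, 0.92, 1.13 and 0.90 in WT. The second read -3.91, -3.63, -3.48 and -3.17 in βUCP2Tg and -3.12, -2.92, -2.84 and -3.39 in WT. On both, βUCP2Tg replicates 1 to 3 were below every WT array and βUCP2Tg replicate 4 lay among them. The differences were -0.49 ± 0.18 and -0.48 ± 0.18, ratios of 0.71 each, with adjusted p-values in limma of 0.143 and 0.158. Without βUCP2Tg replicate 4 the first was called, at -0.67 with an adjusted p of 0.0294, where 4.04% of all probes were called, 2.97% as lower.

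The endoderm factors had the largest means in favour of βUCP2Tg. *Foxa2*, a forkhead pioneer factor, was at 5.17, 5.30, 5.24 and 5.02 in βUCP2Tg and at 5.19, 4.37, 4.36 and 4.71 in WT. WT replicate 1 lay within the βUCP2Tg range and the other 3 WT arrays below it. The difference was 0.52 ± 0.19, a fold of 1.44 with a 95% interval of 1.06 to 1.94 (exact permutation p = 0.0857, limma adjusted p = 0.147).

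*Hnf4a*, a nuclear receptor of β-cells and liver, was at 2.80, 3.01, 2.87 and 2.63 in βUCP2Tg and at 2.66, 1.72, 2.0 and 2.40 in WT on its bright probe. Only WT replicate 1 reached the βUCP2Tg arrays, and it exceeded only the lowest of them, βUCP2Tg replicate 4. The means were 2.83 ± 0.16 and 2.20 ± 0.42 (SD, n = 4), a fold of 1.55 with an interval of 1.12 to 2.13. This was the largest fold among the 18 probes, and it did not pass the test (exact permutation p = 0.0571, limma adjusted p = 0.122). The dim probe in the DNA-binding domain was well above background on 4 βUCP2Tg arrays and 2 WT arrays. It read -5.17, -4.94, -4.85 and -4.64 in βUCP2Tg and -4.45, -6.04, -5.0 and -5.61 in WT, and its difference was 0.37 ± 0.32 (limma, adjusted p = 0.495). The WT arrays surrounded the βUCP2Tg arrays on this probe.

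**Figure D2:**
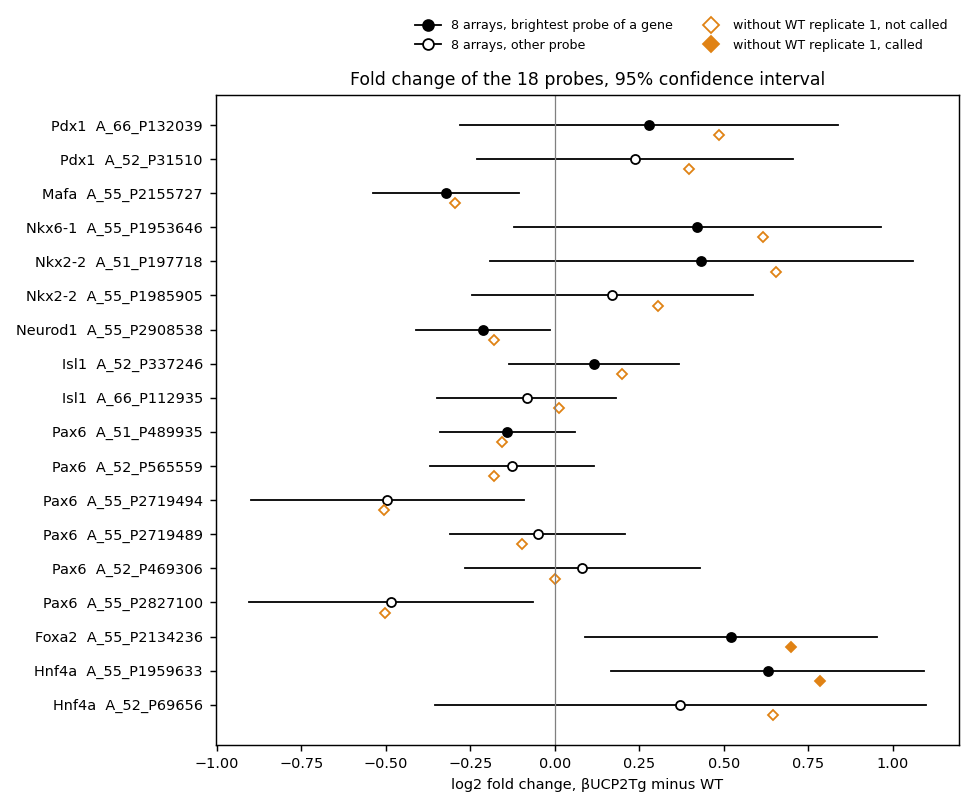
Fold change of the 18 probes. The horizontal axis is the log2 fold change, βUCP2Tg minus WT. Circles are the fit over 8 arrays with its 95% confidence interval, filled for the brightest probe of a gene, and diamonds are the fit without WT replicate 1, filled where the probe was called. The *Foxa2* probe and the bright *Hnf4a* probe are the filled diamonds, at 0.70 and 0.78.

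In 7 of the 9 genes, all but *Mafa* and *Pax6*, WT replicate 1 was the highest WT array and WT replicates 2 and 3 were the 2 lowest. Of these, *Pdx1*, *Nkx6-1*, *Nkx2-2*, *Foxa2* and *Hnf4a* had an SD of 0.39 to 0.60 over the WT arrays, while *Isl1* and *Neurod1* had 0.18 and 0.09. After the mean of each group was taken off, the Pearson correlations of the 5 genes with the wide spread, grouped after their values were seen, over the 8 arrays lay between 0.912 and 0.982 in their 10 pairs. These are descriptions of the same 8 RNA samples, which the genes share. WT replicate 1 was the highest WT array for 8 of the 9 genes, *Pax6* being the exception, while WT replicate 2 was the lowest for 6. In the βUCP2Tg group, replicate 4 was the lowest array for 5 genes and the highest for the other 4. The SD was larger in WT than in βUCP2Tg for 15 of the 18 probes, and for 71.4% of all probes tested.

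**Figure D3:**
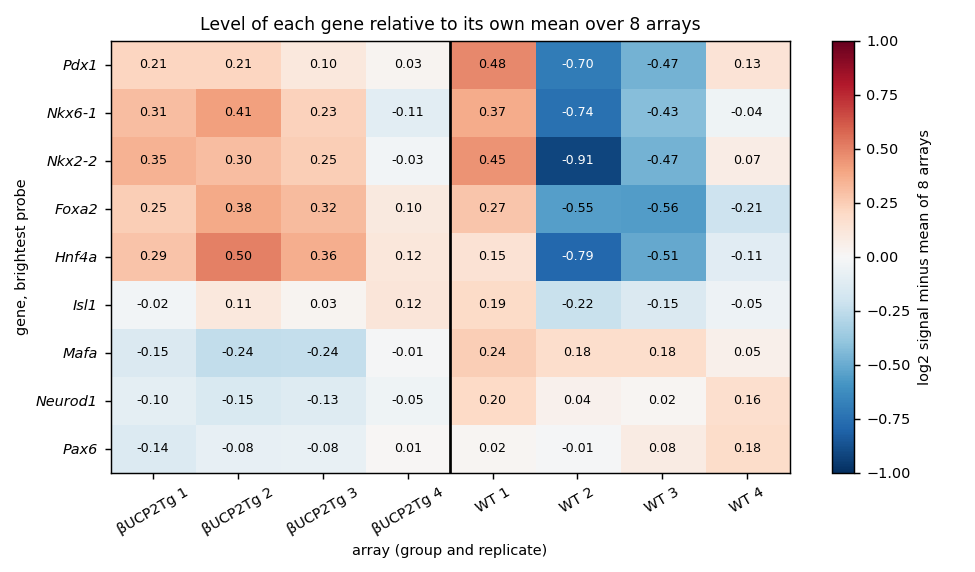
Pattern of the 9 genes over the arrays. Each cell is the log2 signal of the brightest probe minus the mean of that gene over the 8 arrays, with columns for the βUCP2Tg and WT replicates. The first 5 rows are high in WT replicate 1 and low in WT replicates 2 and 3, down to -0.91 in *Nkx2-2*, and the last 3 rows stay between -0.24 and 0.24.

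The calls depended on WT replicate 1. Without it, the *Foxa2* difference was 0.70 (limma, adjusted p = 0.0188) and that of the bright *Hnf4a* probe 0.78 (adjusted p = 0.0296), and both were called. These were the only 2 of the 18 probes called in that fit, where 11.0% of all probes were called, 5.40% as higher. *Nkx6-1* then stood at 0.62 (adjusted p = 0.0672), *Nkx2-2* at 0.65 (adjusted p = 0.0852) and *Pdx1* at 0.49 (adjusted p = 0.120). Leaving out WT replicate 2 or 3 moved these genes the other way. Without WT replicate 2, *Pdx1* stood at 0.09, *Nkx2-2* at 0.20, *Nkx6-1* at 0.24 and *Isl1* at 0.06, and without WT replicate 3 *Pdx1* stood at 0.17. Without WT replicate 4, *Pdx1* stood at 0.37, *Nkx6-1* at 0.48, *Nkx2-2* at 0.53, *Foxa2* at 0.54 and *Hnf4a* at 0.70, and none was called. Without WT replicate 1, *Mafa* and *Neurod1* moved little, at -0.30 and -0.18, with adjusted p-values of 0.0807 and 0.190. With both WT replicate 1 and βUCP2Tg replicate 4 left out, *Nkx6-1*, *Foxa2*, the bright *Hnf4a* probe and the *Pax6* probe A_55_P2719494 were called, and 16.3% of all probes were. *Mafa* then had an adjusted p of 0.0438 at -0.34, below the limit on the fold, and 23.5% of all probes had an adjusted p under 0.05 at any fold. The second *Isl1* probe was at 0.01 without WT replicate 1, a change of sign. In the same fit the dim *Hnf4a* probe stood at 0.65 (limma, adjusted p = 0.107). The second *Pdx1* probe stood at 0.40 (adjusted p = 0.146) and the second *Nkx2-2* probe at 0.31 (adjusted p = 0.209). The canonical *Pax6* probe was at -0.10 and the insert probe at 0.0013, and none of these was called.

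Other measured features also varied from array to array, though not all with the same arrays. A list of 20 genes induced by low oxygen had a mean log2 level of 2.11, 2.08, 2.07 and 3.34 in βUCP2Tg and 2.85, 3.81, 3.80 and 3.87 in WT. βUCP2Tg replicate 4 and WT replicate 1 thus lay between the other arrays of the 2 groups, and 17 of the 20 genes were lower in βUCP2Tg at an unadjusted p under 0.05 (exact permutation p of the list mean = 0.0571). Of all 17870 genes tested 1913 were. Without WT replicate 1, 15 genes of the list were called lower, and 4.43% of all genes. Acinar markers, of which 26 were tested, had means of -1.03, 0.45, -0.54 and 3.0 in βUCP2Tg and 2.17, 3.17, 3.54 and -0.49 in WT, so the arrays rich in exocrine RNA were βUCP2Tg replicate 4 and WT replicates 1 to 3. The acinar factor *Ptf1a* was well above background on no array. Macrophage markers overlapped between the groups, with *Cd14* called lower at -2.08 ± 0.33 (limma, adjusted p = 0.0484). Duct markers ranged from -0.05 to 0.03 in βUCP2Tg and from -0.31 to 0.46 in WT. The part of these features in the levels of the 9 genes was not tested.

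The other islet hormones bear on the factors that are not confined to β-cells. The mean of 7 α-cell markers was 3.78 to 3.83 in βUCP2Tg and 3.42 to 3.62 in WT, without overlap (exact permutation p = 0.0286), and none of the 7 genes was called. The mean of both PP cell markers, *Ppy* and *Pyy*, was 8.30 to 8.68 against 7.68 to 8.29, also without overlap. Taken singly, *Pyy* did not overlap, at 0.79 (limma, adjusted p = 0.0890), while *Ppy* did, at 0.28 (adjusted p = 0.307). The δ-cell markers overlapped, at 3.01 to 3.34 against 2.88 to 3.21. Glucagon itself differed by 0.06 and somatostatin by -0.02. Their part in the levels of *Pax6*, *Isl1*, *Neurod1* and *Nkx2-2* was not tested.

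**Figure D4:**
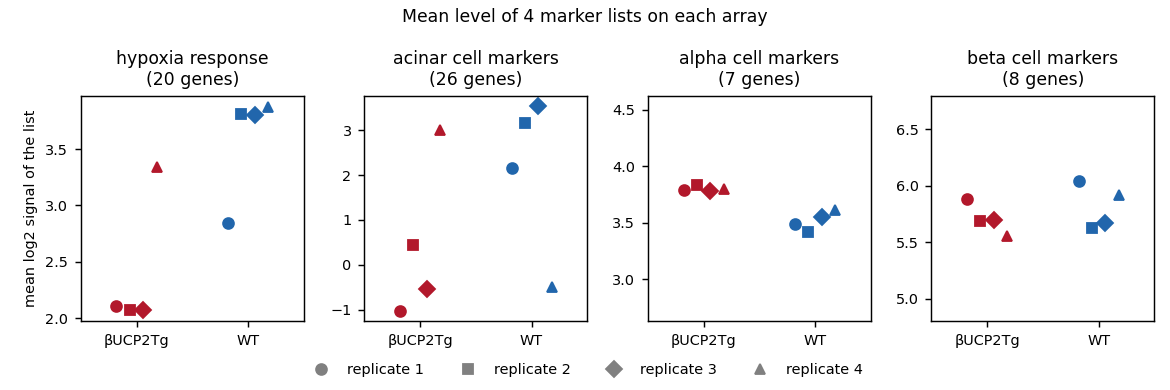
Mean level of 4 gene lists on each array. The vertical axis is the mean log2 signal over the tested genes of the list, with its own range in each panel. Red is βUCP2Tg, blue is WT, and the shape gives the replicate. βUCP2Tg replicate 4 and WT replicate 1 lie between the other arrays in the hypoxia list, while the α-cell list separates the groups.

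None of the near relatives of the 9 factors was called. Of 22 listed genes, 13 were measured on enough arrays to be tested, and the median difference was 0.15, where the median over all 17870 genes tested was 0.04. *Pax4*, *Isl2*, *Neurod2*, *Neurod4*, *Neurod6*, *Nkx2-1*, *Nkx2-5* and *Pax8* were well above background on none of the arrays, and *Foxa1* on at most 3. The largest difference was that of *Nkx6-2*, a close homolog of *Nkx6-1*. It was at -1.63, -1.74, -1.73 and -1.05 in βUCP2Tg and at -3.35, -5.05, -4.16 and -3.15 in WT. All βUCP2Tg arrays were above all WT arrays, and the difference of 2.39 ± 0.40 just missed the limit (limma, adjusted p = 0.0519), passing it without WT replicate 1 at 2.59 (adjusted p = 0.0157). Among the small MAF proteins, which pair with large MAF factors or with NRF2, *Mafg* stood at -0.49 (adjusted p = 0.0879) and *Maff* at -1.21 (adjusted p = 0.137). Without WT replicate 1, 1 gene of this list was called higher, *Nkx6-2*, and 2 were called lower, *Maff* at -1.64 (adjusted p = 0.0140) and *Mafk* at -0.86 (adjusted p = 0.0468). *Foxa3* and *Hnf4g* had differences of 0.32 and 0.16.

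Target genes of the factors were not called on their brightest probe. In 24 listed targets the median difference was -0.08, and 3 were higher and 3 lower at an unadjusted p under 0.05, where 2414 of all 17870 genes were higher and 1913 lower, shares close to those of the list. The insulin genes gave -0.14 ± 0.12 for *Ins1* and -0.16 ± 0.11 for *Ins2*, with adjusted p-values in limma of 0.494 and 0.372. *Iapp*, *Slc30a8* and *Ucn3* differed by -0.07, -0.05 and 0.03. *Slc2a2*, the glucose transporter GLUT2 and a classic PDX1 target, was at 0.69, 0.34, 0.56 and 0.16 in βUCP2Tg and at 1.29, -0.45, -0.09 and 0.35 in WT. Its WT arrays stood in the same order as those of *Pdx1*, with WT replicate 1 the highest of all 8 arrays, and its difference was 0.16 ± 0.34 (adjusted p = 0.802), or 0.50 without WT replicate 1 (adjusted p = 0.138). *G6pc2* stood at -0.31 ± 0.14 (adjusted p = 0.217).

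Some targets had groups that did not overlap. *Pklr*, the liver-type pyruvate kinase and a target of HNF4α, was at -2.98, -2.96, -3.0 and -3.68 in βUCP2Tg and at -3.69, -4.19, -4.21 and -3.91 in WT. Its lowest βUCP2Tg array, replicate 4, was level with WT replicate 1, and the difference was 0.84 ± 0.20 (limma, adjusted p = 0.0848). The incretin receptor gene *Gipr* was lower on every βUCP2Tg array. Its brightest probe gave -0.76 ± 0.16 (adjusted p = 0.0733), and a second probe was called, at -1.06 with an adjusted p of 0.0451. *Npas4*, an activity-induced factor of β-cells, stood at -2.29 ± 0.39 (adjusted p = 0.0519), and *Pcsk1*, a proinsulin convertase, at -0.31 ± 0.09 (adjusted p = 0.109). *Ffar1* and *Glp1r*, receptors on the β-cell surface, gave 0.77 ± 0.29 and 0.60 ± 0.25 with overlapping groups. Without WT replicate 1, 3 targets were called higher, *Ffar1* at 1.08, *Pklr* at 0.95 and *Glp1r* at 0.82, and 3 were called lower, *Npas4* at -2.55, *Gipr* at -0.76 and *Rgs4* at -0.72.

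In 30 listed partners and cofactors, all tested, the median difference was -0.00 and none was called. *Ldb1*, which bridges LIM homeodomain proteins such as ISL1, stood at 0.31 ± 0.14, and *Tcf3*, the E protein that pairs with NEUROD1, at 0.23 ± 0.12. The largest differences in size were those of *Ldb2*, a relative of *Ldb1*, at -0.61 ± 0.24 (limma, adjusted p = 0.171), and of *Ppargc1a*, a coactivator of HNF4α. *Ppargc1a* read -1.51, -1.63, -1.58 and -0.59 in βUCP2Tg and -0.30, -0.19, 0.11 and 0.16 in WT, lower on all βUCP2Tg arrays, with a difference of -1.27 ± 0.24 (limma, adjusted p = 0.0652). βUCP2Tg replicate 4 was the nearest to WT. Without WT replicate 1, *Ppargc1a* was called lower, at -1.35 (adjusted p = 0.0222), the only gene of this list called in that fit.

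Of 40 other islet transcription factors, 36 were tested and 1 was called. *Esrrg*, an orphan nuclear receptor of postnatal β-cells, was at 0.57, 0.77, 0.77 and 0.59 in βUCP2Tg and at 0.11, -0.59, -0.33 and -0.27 in WT. It rose by 0.94 ± 0.15 (limma, adjusted p = 0.0493), and a second probe rose by 1.04 (adjusted p = 0.0441). The median difference of the list was 0.16. *Rfx6*, which lies upstream of much of the endocrine program, was at 0.49, 0.54, 0.37 and 0.14 in βUCP2Tg and at 0.28, -1.57, -0.78 and -0.51 in WT. Its WT arrays were ordered at both ends as in *Nkx6-1*, and the difference of 1.03 ± 0.34 was not called (adjusted p = 0.127) but was without WT replicate 1, at 1.34 (adjusted p = 0.0198).

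*St18*, a zinc finger relative of *Myt1*, stood at -0.72 ± 0.13 (limma, adjusted p = 0.0528) and *Thrb*, a thyroid hormone receptor, at 0.68 ± 0.12 (adjusted p = 0.0548), both without overlap. *Insm1*, *Glis3* and *Mnx1*, which work beside the 9 factors in β-cells, gave -0.00 ± 0.12, 0.15 ± 0.11 and 0.22 ± 0.23. *Mnx1* stood at 0.47 without WT replicate 1 (limma, adjusted p = 0.0274), below the limit on the fold. Without WT replicate 1, 8 genes of this list were called higher and 2 lower. In that fit 7.18% of all genes were called higher and 4.43% lower on their brightest probe.

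**Figure D5:**
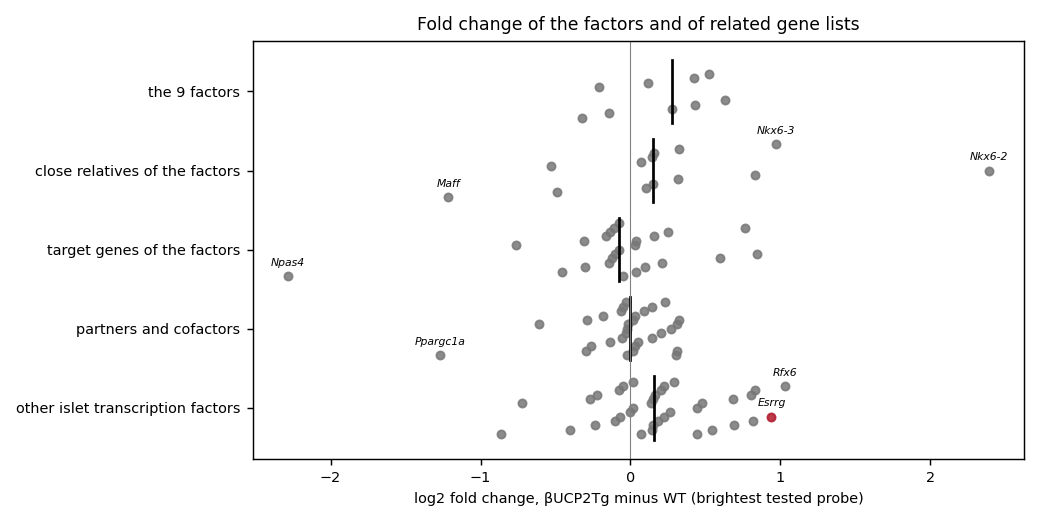
Fold change of the 9 factors and of 4 related lists. Each point is a gene on its brightest tested probe, the horizontal axis is the log2 fold change, βUCP2Tg minus WT, and the black bars are medians. *Esrrg* is the point in red, the only called one, and *Nkx6-2* lies farthest to the right at 2.39.

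The genes whose levels followed each factor most closely over the arrays were found by the Pearson correlation of the deviations from the group means over the 8 arrays. For *Pdx1* they were *Psmg1* (0.998), *Iqcc* (0.997) and *Ski* (0.997), and for *Nkx6-1* they were *Gin1* (0.998), *Aqp4* (0.997) and *Cbfa2t3* (0.997). *Nkx2-2* went with *Pnmal1* (0.998), *Mrgpre* (0.998) and *Fgf12* (0.998), *Foxa2* with *Fam109a* (0.998), *Exoc2* (0.996) and *Ormdl1* (0.995), and *Hnf4a* with *Tmtc4* (0.998), *Mesp2* (0.997) and *Ttc21b* (0.994). For the genes with a small spread, the closest were *Mdn1* (0.988) for *Mafa*, *R3hdm1* (0.987) for *Neurod1*, *Brms1l* (0.977) for *Isl1* and *Ybx1* (0.989) for *Pax6*. These are the highest of 35363 probes over the same 8 RNA samples and carry no test.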

How the data were processed

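RNA of 4 βUCP2Tg and 4 WT islet samples was measured on one-colour Agilent mouse arrays, and groups and replicate numbers came from the sample labels. The authors processed each scan with Agilent Feature Extraction (version 10.7.3.1 per the file headers, 9.1 in the submitters' processing notes), and the deposited scanner files hold linear, background-subtracted spot intensity, not scaled between arrays. The deposited GeneSpring table holds normalized log2 values, which equal the scanner values minus 1 constant per array, and the authors' fold changes and p-values, which were not used.

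Control spots and spots marked as outliers were left out, log2 was taken, spots of a probe were averaged, and each array's 75th percentile over its probes was subtracted. A probe was taken as measured on an array if 50% or more of its spots were well above background. Probes measured on at least 4 arrays were compared with limma 3.58.1 (R 4.3.3), and p-values were adjusted over all 35363 by the Benjamini-Hochberg method. Single values had a two-sided exact permutation test, which cannot go below 0.0286 with 4 against 4. A gene with several probes is given by its brightest tested probe, and each member by all its probes. The text names the members, *Ucp2*, a set list of targets, partners and relatives, any called gene of a list, and the genes most alike in pattern (3 per member found, for 4 members only the first printed). The other genes of the lists were chosen after their values were seen. Some genes of the lists and 1 probe sequence are not reported here. Members, lists and tests were chosen with earlier results of these data known. The list symbols *Ero1b*, *Cltrn*, *Ca9* and *Ero1a* were matched through synonyms. The fit was tested on simulated data of the same size: of 200 changed probes, 59% of those changed 2-fold and 88% of those changed 4-fold were called, with 5 false calls among 35363 probes.

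The alternatives were other filters on dim probes, quantile normalization, median centring, a percentile over probes measured on all arrays, the deposited log2 values, normexp with an offset of 50, outlier spots kept, the methods' t-test, an intensity trend, other limits on the fold, the mean of a gene's probes, a block for the replicate number, and fits without single arrays.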

Additional observations from a re-analysis of the deposited data

Results flagged for a closer look

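Of 58 groups of 4 arrays examined, one for each of the 18 member probes, *Ucp2* and 10 gene list means in each genotype, 3 held an array far from the other 3. Chance alone gives about 1 in 20, or 2.9 of 58, and none of the 3 was a member probe. In the hypoxia list, βUCP2Tg replicate 4 was at 3.34 with the others between 2.07 and 2.11, so that its gap took 0.969 of the group's range. In the same list WT replicate 1 was at 2.85 with the others between 3.80 and 3.87, a share of 0.931. In the duct markers WT replicate 1 was at -0.31 with the others between 0.43 and 0.46, a share of 0.959.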

How the results depend on the processing

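The number of member probes and of member genes called, 0 in the reported fit, moved under 4 alternatives of 24 and 25. It was 1 and 1 with the methods' t-test without adjustment (*Hnf4a*), 1 and 1 without βUCP2Tg replicate 4 (*Pax6*), 2 and 2 without WT replicate 1 (*Foxa2* and *Hnf4a*), and 4 and 4 without both arrays. Without both arrays, 5 member genes had an adjusted p under 0.05 at any fold, where 23.5% of all probes did, and the t-test after adjustment gave 0 member genes. Leaving out 1 array at a time gave 0 to 2 for each of these counts. The calls over all probes, 148 in the reported fit, ranged with it from 8 without βUCP2Tg replicate 2 or 3 to 3815 without WT replicate 1, and were 5588 without both. Other settings with over 1.5 times more or fewer calls were 20 with no filter, 41 with probes on at least 1 array, 225 with probes on all 8 arrays, 543 with normexp, 21 with the adjusted and 2799 with the unadjusted t-test, 313 with the trend, and 93 at a limit of 2-fold. The cause was not tested. The direction of each of the 9 genes on its brightest probe, and of *Ucp2*, was the same in all 23 alternatives run for it, scaling included. The *Hnf4a* difference ranged from 0.47 to 0.85, that of *Foxa2* from 0.42 to 0.75, *Nkx6-1* from 0.24 to 0.72, *Nkx2-2* from 0.20 to 0.74, *Pdx1* from 0.09 to 0.52, *Isl1* from 0.02 to 0.20, *Mafa* from -0.37 to -0.26, *Neurod1* from -0.24 to -0.14 and *Pax6* from -0.20 to -0.08. The replicate block called 0 member probes and changed no member's call, and it left 15 calls over all probes. Samples of the same replicate number correlated in their deviations at 0.44, -0.05, -0.01 and -0.24. These values cannot settle whether samples of the same number were prepared together. With 4 arrays a group, a true change of 2-fold was often missed in simulation, so a probe that was not called may still differ. The intervals given are for single probes, without adjustment for the number of probes tested.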
